A study of Homo sapiens with 36 samples.

Results

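The locus described here is the chromosomal neighbourhood of CCND1, the gene of cyclin D1, in 786-O cells, and its members are anti-V5 Cut&Run peaks. A peak was a member when its summit lay in the gene body of CCND1 (GENCODE release 44, ENSG00000110092.4, hg38, chr11:69641156-69654474, plus strand) or within 300 kb on either side, which gives the window chr11:69341156-69954474. The rule used the position of a summit and no fold, rank or line, but it was chosen with earlier results of these data known. The window held 194 of the 213711 peaks in the 18 anti-V5 lists. Peaks that overlapped between libraries were merged, and the 194 peaks then formed 48 of 61215 regions. Of these 48 regions, 23 were called in at least 2 libraries and 25 in 1 library only. The 21 regions called in at least 3 libraries of tagged lines are described below, and each is named by the distance in kb of its median summit from the CCND1 transcription start site (TSS), with a minus sign for upstream.

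786-O is an established human clear cell renal cell carcinoma (ccRCC) line that lacks functional VHL, the ubiquitin ligase that marks HIF-α proteins for degradation, and that also lacks functional HIF-1α. Cut&Run releases and sequences the DNA around an antibody-bound protein, and the study used it to ask which side of a HIF-α protein decides where it binds. All 6 lines are 786-O, each with 3 replicates probed with anti-V5 and 3 probed with mouse IgG. WT cells carry no tag, so that their anti-V5 libraries measure the background of the antibody. The HIF-2α KIN line is clone A31, in which the endogenous HIF-2α carries a V5-Halo tag on both alleles, and it is 1 clone. The other 4 lines stably express an exogenous V5-Halo-tagged protein from the weak L30 promoter, namely HIF-2α, HIF-1α, HIF-2α/1α or HIF-1α/2α. In the chimeric names, the part before the slash gives the N-terminal side with the DNA-binding and dimerization domains (DBD), and the part after it the source of the disordered C-terminal side (IDR, for intrinsically disordered region). The exogenous lines keep their untagged endogenous HIF-2α, which anti-V5 does not detect. The replicates are biological replicates per the series description, and p-values measure the spread between them. Each exogenous protein is represented by 1 line, so p-values do not cover differences between lines made anew. The paper reports that expression from L30 varied between cells, and the peak lists do not give the amount of tagged protein. Differences in IDR, DBD or origin of the protein cannot be told apart from differences in that amount.

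Cyclin D1 activates the kinases CDK4 and CDK6, which phosphorylate RB1 and release E2F factors, so that the cell passes from G1 to S phase. HIF-α pairs with HIF-1β and binds the hypoxia response element (HRE), whose core is the letters ACGTG or GCGTG. In ccRCC, CCND1 is a known target of HIF-2α, and intergenic DNA far upstream of the gene is known as a HIF-bound enhancer from studies of inherited renal cancer risk.

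The strongest member was the −221.2 kb region, called the enhancer below after that background, since Cut&Run does not measure enhancer activity. It spans chr11:69418946-69421984 (hg38, 3039 bp), is intergenic, and its nearest TSS of a protein-coding gene is that of MYEOV, 125.8 kb away. The reference sequence around its median summit is shown because it carries the strongest peak of the locus. The 207 bases of chr11:69419780-69419986, plus strand, have the HRE cores in capitals on either strand, so that CACGT is the core ACGTG read on the minus strand.
−221.2 kb enhancer: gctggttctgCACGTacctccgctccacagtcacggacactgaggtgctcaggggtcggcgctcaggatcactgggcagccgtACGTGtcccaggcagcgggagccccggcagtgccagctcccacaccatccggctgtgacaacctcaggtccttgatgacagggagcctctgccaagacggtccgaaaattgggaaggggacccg
The median summit is base 69419911. The centre of the nearer HRE core in this stretch is 46 bp from it, and that of the other 119 bp from it. The whole region held 5 HRE cores and 1 AP-1 motif (TGACTCA or TGAGTCA), and its GC content was 52.7%.

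Of the 21 described regions, 5 held an HRE core within 50 bp of their median summit. These 5 are shown to set the DNA at the called summits side by side, each as 29 bases of the hg38 plus strand with the core in capitals. CACGC is the core GCGTG on the minus strand.
−221.2 kb, chr11:69419851-69419879: ctgggcagccgtACGTGtcccaggcagcg
−203.8 kb, chr11:69437273-69437301: caccccagccagGCGTGctgtgtcagccc
−1.9 kb, chr11:69639281-69639309: tgggccagggcgCACGCggggctcggggc
+34.4 kb, chr11:69675537-69675565: cattggccgcgcGCGTGgagagccgacct
+226.8 kb, chr11:69867960-69867988: ccgccagcagcaGCGTGgtgacatcatca
The enhancer has the core ACGTG and the other 4 have GCGTG. An HRE core occurred anywhere in 15 of the 21 regions, against 76.0% of all 25783 consensus regions, which are the merged regions called in at least 2 of the 18 libraries. Within 50 bp of the summit the share over all consensus regions was 24.5%. An AP-1 motif occurred in 8 of the 21, against 37.4% of all. A match of letters is a description and not a measured site.

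The lists of the 15 libraries of tagged lines held 3984 to 20808 peaks, and the WT lists held 392, 9508 and 743. The lists state no read totals. The depth that could be inferred from them, as the genome-wide mean number of fragments per base, was 0.241 to 0.625 over the 18 libraries. WT replicate 2 stands apart from both other WT libraries in its list length, and it alone among the WT libraries had peaks at CCND1. The main test of peak numbers against WT and the regions with an unadjusted p under 0.05 are therefore given with and without it. Other comparisons with WT include it unless stated otherwise. Whether it is what its label says cannot be settled from the peak lists, so its peaks may be antibody background or may not be those of untagged cells. Fold enrichment below is the value the authors deposited for a peak, the fragment pileup at the summit over the local background. Lists differ in their general fold, so folds of different libraries are given side by side as deposited, and lines were tested only on log2 values, centred unless stated otherwise. Absence of a call does not show absence of binding.

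**Figure D1:**
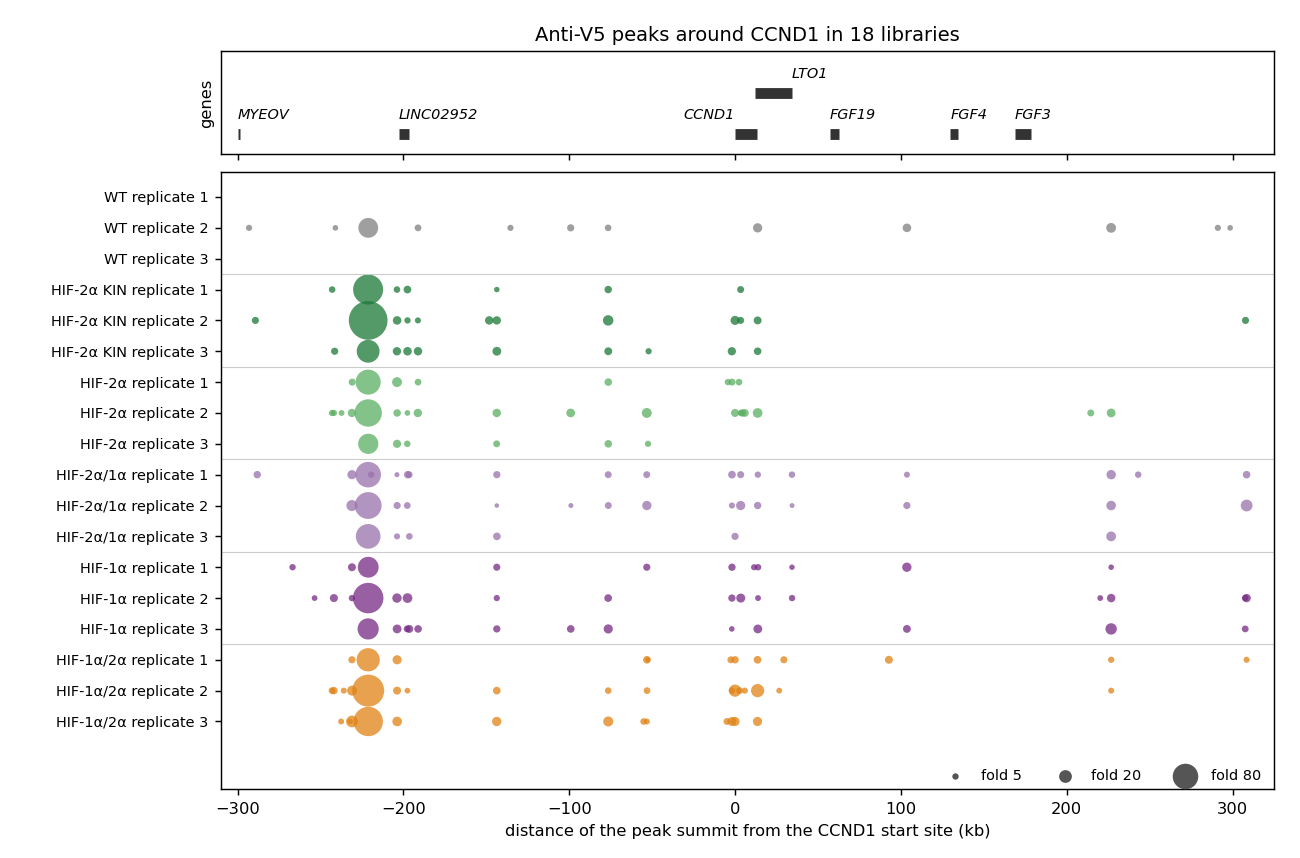
Peaks around CCND1 in the 18 anti-V5 libraries, by the distance of the summit from the CCND1 TSS in kb (horizontal axis), 1 row per library, with the area of a point proportional to the fold enrichment and the gene bodies above. The column of large points at −221.2 kb runs through all 15 tagged libraries and WT replicate 2, whereas WT replicates 1 and 3 have no point.

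The −221.2 kb enhancer was called in 15 of 15 tagged libraries. Fold enrichment in the HIF-2α KIN line was 111, 184 and 64.0 in replicates 1, 2 and 3. It was 76.8, 91.8 and 50.2 in exogenous HIF-2α and 66.4, 125 and 106 in HIF-1α/2α. It was 80.0, 88.3 and 74.7 in HIF-2α/1α and 53.3, 114 and 55.0 in HIF-1α. The values of the lines overlapped. In WT the region was called in replicate 2 only, with a deposited fold of 48.1, which has no centred value. The summits of the 15 tagged libraries and of WT replicate 2 lay between bases 69419872 and 69419960, a span of 88 bp (SD 26.2). HIF-2α/1α replicate 1 had a further, weaker peak in the same region, and the stronger peak was used.

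Within each list the enhancer was among the highest peaks. Ordered by −log10 p, it ranked 2, 2 and 3 in HIF-2α KIN, 8, 8 and 9 in HIF-2α and 7, 7 and 2 in HIF-1α/2α. It ranked 19, 6 and 13 in HIF-2α/1α and 19, 11 and 17 in HIF-1α. Each of these ranks lay in the top 0.152% of its list. In the library labelled WT replicate 2 the enhancer ranked 13 of 9508, which is the top 0.137%. The part of antibody background in the ranks of the tagged lines was not tested.

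**Figure D2:**
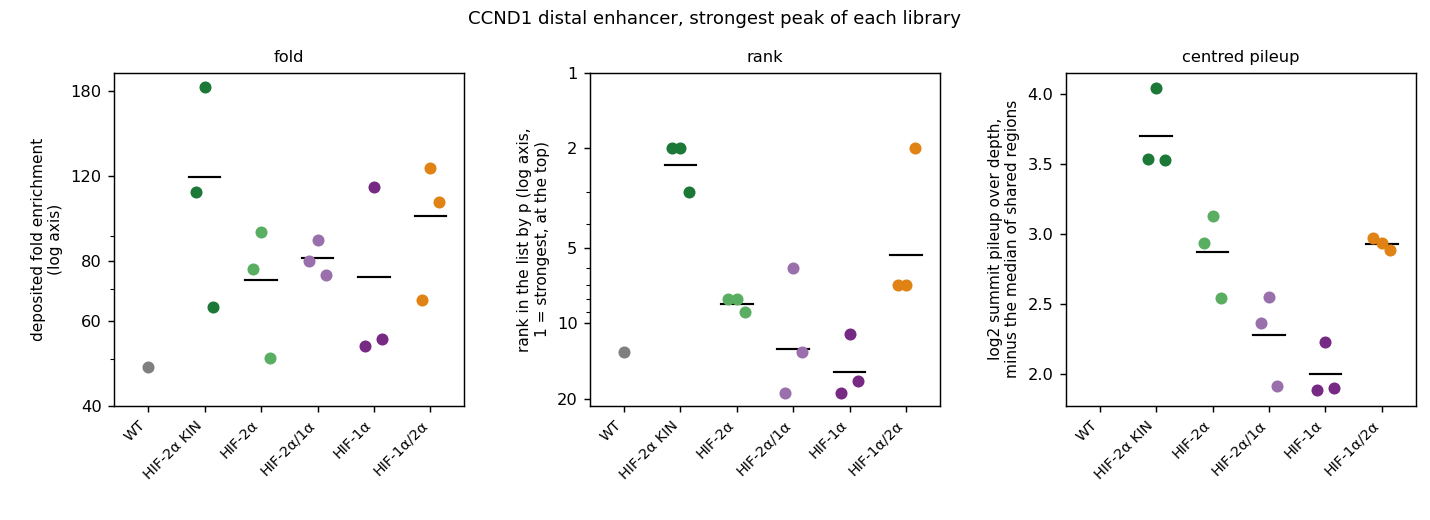
The −221.2 kb enhancer in each library by line, as the deposited fold enrichment, as the rank in the list and as the centred log2 pileup over depth, with points for libraries and bars for the mean of a line. The HIF-2α KIN libraries have the highest centred pileup (mean 3.70), and WT appears with replicate 2 only and has no centred value.

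The mean fold at the enhancer was 120 ± 60.5 in HIF-2α KIN, 72.9 ± 21.1 in HIF-2α, 99.1 ± 30.0 in HIF-1α/2α, 74.1 ± 34.5 in HIF-1α and 81.0 ± 6.83 in HIF-2α/1α (SD, n = 3 each). For the tests, log2 fold was centred on the median of the 1720 regions called in all 15 tagged libraries. Centred log2 fold was then 3.10 ± 0.706 in HIF-2α KIN, 1.95 ± 0.428 in HIF-2α, 2.15 ± 0.364 in HIF-1α/2α, 1.73 ± 0.349 in HIF-1α and 1.60 ± 0.20 in HIF-2α/1α (SD, n = 3 each). By this measure the enhancer did not pass the test in any comparison of lines. The IDR and DBD comparisons here and below use the 4 exogenous lines only, without HIF-2α KIN, which carries the HIF-2α DBD and IDR from the endogenous gene. The 6 libraries with the HIF-2α IDR minus the 6 with the HIF-1α IDR differed by 0.38 on the log2 scale (SE 0.34, 95% interval −0.29 to 1.06, limma adjusted p = 0.611). The 6 libraries with the HIF-2α DBD minus the 6 with the HIF-1α DBD differed by −0.16 (SE 0.34, interval −0.84 to 0.51, limma adjusted p = 0.877). The interaction of IDR and DBD was −0.07 (SE 0.68, limma adjusted p = 0.999). Exogenous HIF-2α minus HIF-2α KIN was −1.15 (SE 0.47, interval −2.08 to −0.22, limma adjusted p = 0.33). Of all regions tested, 1.99% passed for the IDR and 3.09% for the DBD (2720 regions each), 0% for the interaction and 0.523% for exogenous HIF-2α against the KIN line (1720 regions). For the interaction, 146 of 2720 regions had an unadjusted p under 0.05. These intervals leave room for a difference above 1 log2 unit for the IDR and the KIN line.

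Fold divides by the local background, which at the enhancer summit ranged from 2.36 to 17.0 fragments over the 15 tagged libraries. The pileup at the summit, recovered from the deposited fold and −log10 p and divided by the inferred depth, was therefore tested as well. It is in multiples of the genome-wide mean coverage. The enhancer pileup over depth was 981, 3950 and 1940 in HIF-2α KIN, 1010, 3000 and 758 in HIF-2α and 1170, 2780 and 1410 in HIF-1α/2α. It was 477, 1480 and 692 in HIF-1α, 994, 2680 and 861 in HIF-2α/1α and 261 in WT replicate 2. Replicate 2 was the highest library of every tagged line. After centring as for the fold, the log2 pileup over depth was 3.70 ± 0.295 in HIF-2α KIN, 2.87 ± 0.298 in HIF-2α, 2.93 ± 0.0436 in HIF-1α/2α, 2.00 ± 0.193 in HIF-1α and 2.27 ± 0.327 in HIF-2α/1α (SD, n = 3 each). The 6 exogenous HIF-2α IDR libraries lay between 2.54 and 3.13 and the 6 HIF-1α IDR libraries between 1.88 and 2.55, so that the groups met at the boundary.

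By this measure the enhancer was higher with the HIF-2α IDR than with the HIF-1α IDR, by 0.76 on the log2 scale (SE 0.14, interval 0.46 to 1.07, limma adjusted p = 0.000566). It was lower in exogenous HIF-2α than in HIF-2α KIN, by a difference of −0.83 (SE 0.21, interval −1.27 to −0.40, limma adjusted p = 0.00483). The DBD difference was 0.10 (SE 0.14, interval −0.20 to 0.41, limma adjusted p = 0.621) and the interaction was −0.34 (SE 0.29, limma adjusted p = 0.801). Many regions passed by this measure, 42.9% of 2720 for the IDR, 26.9% for the DBD, 0.147% for the interaction and 30.3% of 1720 for exogenous HIF-2α against the KIN line. The IDR difference at the enhancer was larger than that of 92.1% of the regions. Without centring, both differences kept their sign and missed the threshold, at 0.54 (limma adjusted p = 0.63) for the IDR and −0.57 (limma adjusted p = 0.997) for the KIN line. Without HIF-2α replicate 3 the KIN difference was −0.62 (limma adjusted p = 0.0566).

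Of the 1720 regions called in all 15 tagged libraries, the enhancer was the only member of the CCND1 window. By median rank (8) it came 3rd among them, and by mean centred log2 fold (2.11) it came 5th. Its centred log2 fold varied over the 15 libraries with an SD of 0.665, against a median SD of 0.628 over these regions, and 60.6% of the regions varied less. WT replicate 2 also called 505 (29.4%) of the 1720. The 5 regions whose centred log2 fold followed that of the enhancer most closely over the 15 libraries had DNAJB12, FRMD4A, NEDD9, NDRG1 and AAK1 as nearest protein-coding gene. Their Pearson r was 0.845, 0.836, 0.836, 0.834 and 0.807, as the highest of 1719 regions compared, whose median r was 0.0517. The points share their libraries and therefore depth and list length, and r is given as a description.

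**Figure D3:**
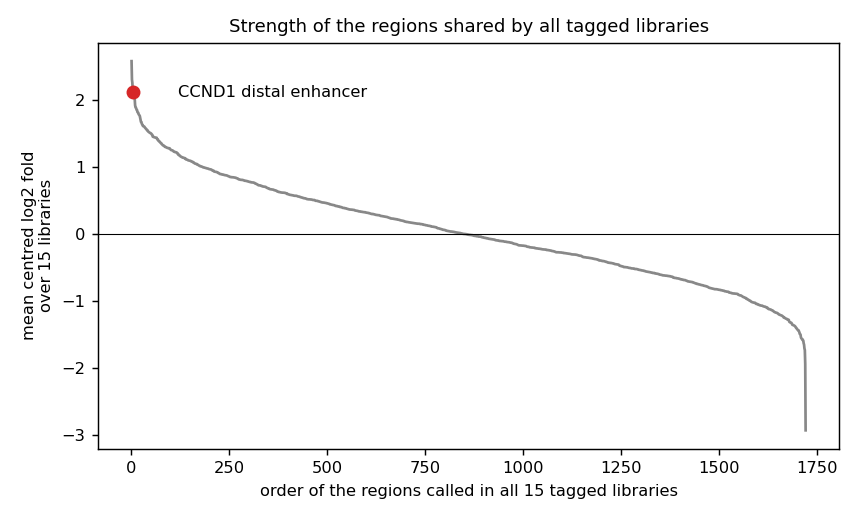
Mean centred log2 fold over the 15 tagged libraries (vertical axis) of the 1720 regions called in all of them, in descending order (horizontal axis), with the CCND1 enhancer as a red point. The enhancer sits at 2.11, 5th in the order.

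The promoter of CCND1 was called in fewer libraries than the enhancer. The region at the TSS (chr11:69640372-69641432) was called in 6 of 15 tagged libraries and in no WT library. Its fold was 6.6, 18.4 and 10.0 in HIF-1α/2α, and it was called in 1 library each of HIF-2α KIN (10.1), HIF-2α (7.88) and HIF-2α/1α (6.38) and in none of HIF-1α. In the same 6 libraries the fold of the enhancer was 6.82 to 18.2 times that of the promoter. Calls at the TSS in 4 of 6 HIF-2α IDR and 1 of 6 HIF-1α IDR libraries did not pass the test (Fisher's exact test, p = 0.242). The −1.9 kb region (chr11:69638442-69639913) was called in 10 tagged libraries with folds of 3.81 to 9.89, in all 6 libraries with the HIF-1α DBD and 3 of 6 with the HIF-2α DBD (Fisher's exact test, p = 0.182). The +3.4 kb region (chr11:69644194-69644827), in an intron of CCND1, was called in 6 tagged libraries with folds of 4.27 to 10.5.

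Just past the 3′ end of CCND1, the +13.6 kb region (chr11:69654011-69655902) lies in an intron of LTO1, a gene on the opposite strand. It was called in 11 tagged libraries. Its fold was 7.33, 21.5 and 10.3 in HIF-1α/2α, 5.1, 4.26 and 9.54 in HIF-1α, 4.96 and 6.65 in HIF-2α/1α, 7.76 and 7.06 in HIF-2α KIN and 11.5 in HIF-2α. WT replicate 2 called it with a fold of 10.6.

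Upstream of the gene, 8 of the 21 described regions lay between 190 and 250 kb from the TSS, and the enhancer was 1 of these 8. The −203.8 kb region (chr11:69437054-69437880) was called in 14 of 15 tagged libraries, all except HIF-1α replicate 1, and in no WT library. Its folds were 5.32, 9.01 and 8.67 in HIF-2α KIN, 11.9, 6.92 and 8.23 in HIF-2α, 10.3, 7.81 and 11.3 in HIF-1α/2α, 3.11, 6.25 and 4.59 in HIF-2α/1α, and 10.8 and 9.54 in HIF-1α replicates 2 and 3. The −197.6 kb and −196.5 kb regions lie in an intron and an exon of LINC02952, a long noncoding RNA gene, and were called in 10 and 3 tagged libraries. The −231.0 kb region was called in 9 tagged libraries with folds of 5.01 to 16.9, in each exogenous line and in no HIF-2α KIN or WT library. The −243.0 kb, −241.9 kb and −191.2 kb regions were called in 3, 4 and 5 tagged libraries, and the −191.2 kb region also in WT replicate 2 (fold 5.7).

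Between that cluster and the gene, the −143.7 kb region (chr11:69497222-69497742) was called in 13 tagged libraries and in no WT library, with folds of 2.52 to 10.7. The −76.5 kb region was called in 11 tagged libraries (folds 5.4 to 13.5) and in WT replicate 2 (5.34). The −53.2 kb region was called in 9 tagged libraries (folds 4.35 to 12.0), and the −99.1 kb region in 3 tagged libraries and WT replicate 2.

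Downstream of the gene end, calls at 3 regions were split by IDR without passing the test. The +226.8 kb region (chr11:69867382-69868179) was called in all 6 HIF-1α IDR libraries, with folds of 10.9, 11.2 and 11.7 in HIF-2α/1α and 3.77, 8.82 and 16.0 in HIF-1α. It was called in 3 of 6 HIF-2α IDR libraries, with folds of 9.43 in HIF-2α and 4.86 and 4.44 in HIF-1α/2α, and in no HIF-2α KIN library (Fisher's exact test of the IDR, p = 0.182). WT replicate 2 called it with a fold of 11.8. The +34.4 kb and +103.6 kb regions were each called in 4 of 6 HIF-1α IDR libraries and 0 of 6 HIF-2α IDR libraries (Fisher's exact test, p = 0.0606, adjusted p = 1.0 for each). Folds at +34.4 kb were 5.23 and 2.96 in HIF-2α/1α and 3.66 and 5.01 in HIF-1α. Those at +103.6 kb were 4.47 and 6.35 in HIF-2α/1α and 10.6 and 7.56 in HIF-1α, and WT replicate 2 had 9.09. With 3 libraries a line these splits did not pass. All 4 tagged calls at +34.4 kb, and all 4 at +103.6 kb, came from HIF-1α IDR libraries. Both regions thus met the rule of at least 3 tagged libraries through that group alone. Their splits therefore add no support for an IDR difference. The tagged peaks lay 65.5 to 98.2% down their lists at +34.4 kb and 35.1 to 93.1% at +103.6 kb. At a −log10 q of at least 5, calls remained in 2 tagged libraries at +34.4 kb and 3 at +103.6 kb. Over all regions tested the median IDR difference in called share was −16.7 percentage points, with more calls for the HIF-1α IDR. Without HIF-2α/1α replicate 3 the p of both splits was 0.0152 (Fisher's exact test, adjusted p = 0.529). That p was also reached at +103.6 kb without HIF-1α replicate 2 (Fisher's exact test, adjusted p = 0.808). At +34.4 kb it was reached without HIF-1α replicate 3 (Fisher's exact test, adjusted p = 0.683). Each library left out here had no call at the region, so its omission could only lower the p and adds no support for a split. At the far end, the +307.6 kb and +308.5 kb regions were called in 3 and 4 tagged libraries.

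**Figure D4:**
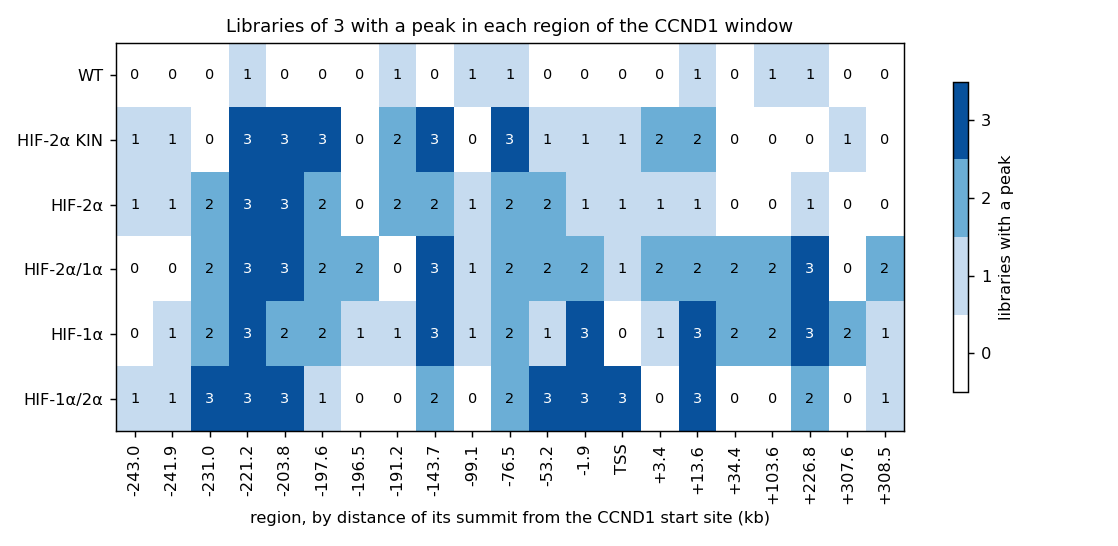
Number of the 3 libraries of each line (rows, shade and digit) that called each of the 21 described regions (columns, by the distance of the summit from the CCND1 TSS in kb). The −221.2 kb column is at 3 in all 5 tagged lines, and WT is at 1 in 7 columns and at 0 in the other 14.

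Over all 21 described regions, calls in at least 2 of the 3 libraries of a line were made at 8 regions in HIF-2α KIN, 8 in HIF-2α, 10 in HIF-1α/2α, 12 in HIF-1α and 15 in HIF-2α/1α. These are 38.1%, 38.1%, 47.6%, 57.1% and 71.4% of the 21. Over all 20042 regions called in at least 3 tagged libraries, the same rule gave 25.1%, 33.2%, 53.6%, 68.9% and 67.3% in the same order of lines. Of the 21, 17 had their median summit outside annotated gene bodies, and 13 lie further than 100.0 kb from the TSS. These 17 include the region at the CCND1 TSS and the +34.4 kb region, which spans the LTO1 TSS. In WT, calls in at least 2 of the 3 libraries were made at 0% of the 21 and 2.29% of the 20042 regions. The lists of WT replicates 1 and 3 held only 392 and 743 peaks. In the tagged lists the enhancer was the only one of the 21 in the top 10% of a list. In WT replicate 2 the +13.6 kb region ranked 307 and the +226.8 kb region ranked 469 of 9508, both within the top 10% of that list. The remaining 27 regions, called in at most 2 tagged libraries, held 29 peaks with folds of 3.84 to 8.72 (median 4.89). Of these peaks 17 came from replicate 2 libraries, whose lists are the longest of every line, and 5 of the regions were called in WT replicate 2 alone.

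Calls were compared with Fisher's exact test at every consensus region. More calls in tagged than in WT libraries had an unadjusted p under 0.05 at 3 of the 23 consensus regions of the window (13.0%), against 18.0% of all 25783. These were the −221.2 kb enhancer (15 of 15 against 1 of 3, exact p = 0.0196, adjusted p = 0.166), the −203.8 kb region (14 of 15 against 0 of 3, exact p = 0.0049, adjusted p = 0.0657) and the −143.7 kb region (13 of 15 against 0 of 3, exact p = 0.0123, adjusted p = 0.12). Without WT replicate 2, the same 3 regions had an exact p of 0.00735, 0.0221 and 0.0441 (smallest adjusted p = 0.118), against 13.2% of all regions, and without WT replicate 1 or 3 the p of the enhancer was 0.118. None of the 23 passed after adjustment, against 4.66% of all. The median difference in the share of libraries with a call was 26.7 percentage points over the 23 and 33.3 over all. For the IDR, 0 of 23 passed even unadjusted, against 1.41% of all 25285 tested, and for the DBD 0 of 23, against 0.562%. The median IDR difference was −16.7 points over the members and over all regions. The smallest adjusted p over all regions was 1.0 in both domain comparisons. With 6 libraries on each side, no region could pass this adjustment unless very many regions were split completely between the sides. These adjusted values therefore do not show that the domains are alike.

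The number of window peaks in a library was 7, 12 and 10 in HIF-2α KIN, 8, 18 and 6 in HIF-2α and 12, 17 and 13 in HIF-1α/2α. It was 11, 16 and 13 in HIF-1α, 18, 15 and 6 in HIF-2α/1α and 0, 12 and 0 in WT. The mean over 15 tagged libraries was 12.1 ± 4.16 and over 3 WT libraries 4.0 ± 6.93 (SD), a difference of 8.13 (two-sided exact permutation test, p = 0.0147, adjusted p = 0.0441 over 3 tests). The lists of WT replicates 1 and 3 held only 392 and 743 peaks. At the tagged share of 4.85 to 17.6 window peaks per 10000, lists so short would hold few or none. This test, with or without WT replicate 2, therefore cannot tell a difference at CCND1 from a difference in list length. WT replicate 2 had as many window peaks as the tagged median of 12. Without it the difference was 12.1 (exact permutation adjusted p = 0.0221), and without WT replicate 1 or 3 it was 6.13 (adjusted p = 0.331). The adjusted p also rose to between 0.0529 and 0.0574 on leaving out any of 7 tagged libraries, which were HIF-2α replicate 2, HIF-2α/1α replicates 1 and 2, HIF-1α replicates 2 and 3 and HIF-1α/2α replicates 2 and 3. Per 10000 peaks of a list the difference was 5.56 (exact permutation adjusted p = 0.0675). HIF-2α IDR and HIF-1α IDR libraries had 12.3 ± 4.76 and 13.2 ± 4.26 window peaks (SD, n = 6 each, exact permutation p = 0.85), and HIF-2α DBD and HIF-1α DBD libraries 11.8 ± 5.81 and 13.7 ± 2.34 (SD, n = 6 each, exact permutation p = 0.55).

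The CCND1 window held more consensus regions than most gene windows, and 1 region called in every tagged library, and 39.7% of gene windows held at least 1 such region. Windows drawn by the same rule around 20033 protein-coding genes held a median of 9 consensus regions, and 88.8% of them held fewer than the 23 of CCND1. Among 15 other genes of the G1/S transition, the number was 1 to 29 with a median of 10. Regions called in all 15 tagged libraries lay in the windows of CDKN2D (5), CDKN1B (4), CDKN1A (2) and RB1 (2), against 1 for CCND1, and in none of the other 11. CDKN2D, CDKN1B and CDKN1A encode inhibitors of cyclin-dependent kinases, and RB1 the protein that cyclin D1-bound kinases phosphorylate. The strongest region of each had a median fold over the tagged libraries of 51.4 at CDKN2D, 35.7 at CDKN1B, 22.9 at RB1 and 21.6 at CDKN1A, against 80.0 at the CCND1 enhancer. A region in a window is not shown to act on the gene the window was drawn around.

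The protein-coding genes touching the window were MYEOV, CCND1, LTO1, FGF19, FGF4 and FGF3. Of these, only CCND1 and LTO1 held the median summit of a described region in their gene body. The limits of the window fell between peaks. On the upstream side the nearest summit inside was one of WT replicate 2, 6920 bp from the edge (fold 4.69), and the nearest outside one of HIF-1α/2α replicate 2, at 19047 bp (7.88). On the downstream side they were one of HIF-1α replicate 2, at 4810 bp (8.55), and one of HIF-2α/1α replicate 2, at 1862 bp (6.59).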

How the data were processed

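Cut&Run peak lists of 18 anti-V5 libraries were analysed, with samples grouped by their labels. The authors aligned reads to hg38 with Bowtie2 2.3.4.1 in local mode (fragments of 10 to 700 bp), handled alignments with SAMtools 1.8, and called peaks with MACS2 (version not given in the sources used here) at a q-value of 0.01 and a maximum gap of 400 bp, with duplicates kept, with the IgG library of a line and replicate as control for its anti-V5 library. They removed blacklisted regions with bedtools 2.28.0. Peaks were called per replicate, and combined replicates were used for display only. The deposited lists give the summit, the fold enrichment (a ratio) and, as −log10, the p-value and q-value of each peak.

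Peaks of all 18 lists were merged at an overlap of 1 bp. GENCODE release 44 (hg38, as in the authors' alignment) gave gene positions. Summit pileup and background followed from the deposited fold, with 1 added to both of its terms as MACS2 does, and from the deposited −log10 p as a Poisson tail, within 0.01 of the deposited value for at least 99.99% of the peaks of each library. The pileup of HIF-2α/1α replicate 2 had been scaled, and its depth as stated in the range above was divided by that scale. For pileup over depth, its pileup and depth were both kept on the scaled values. Depth was the lowest local background shared by many peaks. Intervals cover the spread between libraries only. Numbers of peaks were tested by exact permutation over libraries, calls by Fisher's exact test over all consensus regions, and log2 strength with limma 3.58.1 in R 4.3.3, each with Benjamini-Hochberg adjustment at 0.05. The domain comparisons used the 12 libraries of the 4 exogenous lines, without HIF-2α KIN, and regions called in at least 2 WT libraries were left out of their call test. Other steps used Python 3.11.15, NumPy 2.4.6, pandas 2.3.3, SciPy 1.17.1, pysam 0.24.0 and matplotlib 3.10.9, and the procedures were checked on simulated data. Regions called in at least 3 tagged libraries were described in full. Genes named were those touching the window or holding a described region, the genes of a G1/S list with most regions shared by all tagged libraries, and the nearest genes of the 5 regions most like the enhancer. The members and lists were chosen with earlier results of these data known. The alternatives were the q-value threshold, the list length, the window, the overlap rule, the measure and its centring, the replicate block and leaving out each library. Treating pileup over depth as a result of its own, with its own alternatives, was chosen after seeing the data. IgG libraries entered only through the authors' calls.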

Additional observations from a re-analysis of the deposited data

How the results depend on the processing

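Peak numbers in the window changed with list length, and depth is known only by inference. The tagged minus WT difference in window peaks was 3.80 in a window of 100 kb on either side (exact permutation adjusted p = 0.0625), 0.733 over the top 3984 peaks of each list (adjusted p = 0.88) and 5.56 per 10000 peaks (adjusted p = 0.0675). The IDR difference reversed to 0.50, 1.67 and 2.39 under the same 3 settings (smallest adjusted p = 0.0675), and the DBD difference to 0.193 per 10000 peaks. The lists of WT replicates 1 and 3, with 392 and 743 peaks, are shorter than 3984 and could not be cut to that length. The WT value over the top peaks thus comes from WT replicate 2 alone. Without each library in turn these differences ranged from 6.13 to 12.1 (tagged minus WT), −2.27 to 0.433 (IDR) and −3.07 to −0.667 (DBD). Regions of the window with p under 0.05 for tagged against WT in Fisher's exact test fell from 3 to 1 over the top peaks and were 2 to 3 without each library, and those for the IDR were 0 to 2. Over the top peaks the difference in calls reversed at +13.6 kb (−6.67 points) and +226.8 kb (−20.0) for tagged minus WT and at −143.7 kb (16.7) and +13.6 kb (50.0) for the IDR. Without each library in turn the tagged minus WT difference was −30.0 to 20.0 at −99.1 kb and −23.3 to 26.7 at +103.6 kb, with the reversals without WT replicate 2. At the enhancer, pileup over depth in place of fold moved the IDR difference to 0.762 and the KIN difference to −0.835, both past the threshold, and reversed the DBD difference to 0.105. The cause was not tested. Pileup with no centring gave 0.539 and −0.568, below the threshold. Without each library the log2 fold difference ranged from 0.292 to 0.496 (IDR), −0.262 to −0.051 (DBD), −0.267 to 0.158 (interaction) and −1.56 to −0.923 (KIN), with no call changed, and the pileup difference from 0.668 to 0.867, 0.0356 to 0.212, −0.519 to −0.175 and −0.965 to −0.619.

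Same-numbered libraries of different lines had deviations from the line means that correlated at −0.0209 to 0.177 (30 pairs, 9 over 0.1) and those of different number at −0.116 to 0.0586 (60 pairs, 0 over 0.1). For 14 of 15 tagged libraries the best correlate in another line had the same number. This is a hint from the data of a shared replicate effect, but the labels state no pairing and not every pair was over 0.1, so the main tests have no block. With the replicate block, the tagged minus WT difference of 8.13 window peaks had an exact permutation adjusted p of 0.0278, and no call at the locus changed. The block does not separate that difference from list length. Over all 2720 regions the block raised the limma calls of the IDR by fold from 37 to 53 higher and from 17 to 32 lower.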
